A study of Mus musculus with 12 samples.

Results

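The comparison set 3 mouse glioblastoma cultures labelled mGC1_GFAP against 3 labelled mGC2_NES, which make up 6 of the 12 cultures measured. They were chosen by these titles, and all genes read by a probe set with exactly 1 gene symbol were described, 21780 of the 28270 probe sets on the array. The mGC1_GFAP tumours arose in G/tv-a;Arf-/- mice and the mGC2_NES tumours in N/tv-a;Arf-/- mice, so all 6 cultures share the loss of Arf, a tumour suppressor encoded at Cdkn2a. In both lines DF-1 chicken cells that release RCAS-PDGFB-HA, an avian retrovirus encoding the growth factor PDGFB, were put into the adult brain. The tv-a transgene is the receptor for this virus, driven in G/tv-a by the promoter of Gfap, which astrocytes and stem cells express, and in N/tv-a by that of Nes, a progenitor gene. The tumour cells grew untreated and adherently, in medium for stem cells with B-27 and insulin. Beside each difference stands that between normal neural stem cells (NSC) of the same lines, taken from the subventricular zone of adult G/tv-a and N/tv-a mice lacking Arf, with 1 culture per line. Another tumour group, mGC3_CNP from C/tv-a;Arf-/- mice, also with 3 cultures, entered the fit to estimate the spread. As every tumour group is tied to 1 mouse line, the cell of origin and the line cannot be told apart. The labels call the cultures independent without naming animals, so p-values speak only of the spread among cultures, which may be partly technical. Sex-linked transcripts, given below, differed between the cultures of each group.

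Gliomas driven by PDGFB are known to resemble oligodendrocyte precursor cells, the dividing glial progenitors that carry the PDGF receptor alpha. The adult subventricular zone holds stem cells that express Gfap and progenitors that express Nes, and both can give rise to glia. A difference between tumours from both lines is therefore often asked of lineage genes, of signals such as Wnt, Notch, Hedgehog and TGF-beta, and of metabolism.

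Values are log2 probe set summaries, and a difference is mGC1_GFAP minus mGC2_NES with its standard error from limma. An NSC difference is NSC G/tv-a minus NSC N/tv-a and carries no test. Calls are probe sets with adjusted p below 0.05. The spermatid transcripts Odf1, Prm2, Tnp1 and Tnp2 were taken to be absent, and their probe sets read 5.60 to 7.42. Where the lower group mean was at or below 7.42 the difference is a lower bound on its size. Where both means were, presence was not shown.

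Both groups had the profile of oligodendrocyte precursors. Olig2, a transcription factor of that lineage, read 12.34 in mGC1_GFAP and 12.20 in mGC2_NES, and Sox10 read 12.62 and 12.65. Markers of microglia, endothelium, pericytes and ependyma gave 0 called genes of 14, 11, 13 and 11 in limma (1, 0, 0 and 0 at an unadjusted p under 0.05). Their mean levels were all below 7.42, at 6.51 to 6.59 in mGC1_GFAP and 6.51 to 6.60 in mGC2_NES for microglia and at 6.72 to 6.79 and 6.80 to 7.25 for pericytes, where the part of the higher mGC2_NES range was not tested. Of 11 Schwann and neural crest markers, 1 was higher (Pmp22, 0.51 ± 0.09) and 2 were lower (Erbb3, -0.54 ± 0.11, and Tfap2a, -1.90 ± 0.43). This is 27.3% called, against 6.23% of all genes. Their mean level lay at 8.36 to 8.43 in mGC1_GFAP and at 8.66 to 8.68 in mGC2_NES, and their part in the results was not tested. Y-linked transcripts were found in mGC1_GFAP replicates 1 and 2 and in mGC2_NES replicates 1 and 3. Xist, the X inactivation transcript, read 12.60 in mGC1_GFAP replicate 3 and 9.27 in mGC2_NES replicate 2. The NSC G/tv-a culture had both Xist (11.86) and the Y-linked Eif2s3y (9.16). Every distance between an mGC1_GFAP and an mGC2_NES array (Euclidean, 47.6 to 57.6) exceeded every distance within a group (35.5 to 41.4).

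The groups differed in 1336 of 21780 probe sets (6.13%), 679 higher (3.12%) and 657 lower (3.02%) in mGC1_GFAP, while 4479 had an unadjusted p under 0.05. These calls name 1242 of 19934 genes (6.23%), taking each gene by its smallest p, with 609 higher and 633 lower. Most differences were small, with a median of 0.51 for the higher and -0.52 for the lower calls, and 57 higher and 86 lower calls reached 2-fold. All 1336 calls had groups that do not overlap, as had 26.5% of all probe sets. The mean of the mGC3_CNP cultures lay between both groups for 1179 of the calls, nearer to mGC1_GFAP for 694 and nearer to mGC2_NES for 642 of the 1336. The count of calls changed with the arrays in the fit. It fell to 534 when mGC1_GFAP replicate 1 was left out, to 629 for mGC1_GFAP replicate 3, to 622 for mGC2_NES replicate 2 and to 693 for mGC2_NES replicate 3. Without mGC2_NES replicate 1 the count was 985, with 406 lower, and without mGC1_GFAP replicate 2 it was 955, with 438 lower. Without mGC3_CNP replicates 1, 2 and 3, which only entered the spread, it was 1619, 1039 and 1071. Fewer arrays also make calls harder, so these drops do not single out a culture.

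Of the 15 genes named as lowest in mGC1_GFAP relative to mGC2_NES, Adcy2, AA388235, Gdpd3 and Penk had the largest differences. Adcy2, an adenylyl cyclase that makes cyclic AMP, read 6.32, 7.14 and 6.65 in mGC1_GFAP and 10.97, 10.95 and 10.77 in mGC2_NES. No mGC1_GFAP culture came near any mGC2_NES culture, and the difference was -4.19 ± 0.35 (adjusted p = 0.00106), a lower bound, with an NSC difference of -0.91. AA388235 read 5.12, 5.04 and 5.00 against 8.75, 9.54 and 9.24 (difference -4.12 ± 0.17, adjusted p = 1.01e-05, a lower bound), and its NSC difference was nearly as large at -3.95. Penk, the precursor of enkephalin opioid peptides, read 7.27, 7.93 and 6.18 against 11.10, 10.14 and 10.79 (difference -3.55 ± 0.48, adjusted p = 0.00645, a lower bound). Its NSC difference had the same direction at -1.73. The phosphodiesterase gene Gdpd3 read 6.31, 6.27 and 6.50 against 9.32, 10.68 and 10.07. It was thus at the level of absent transcripts in every mGC1_GFAP culture (difference -3.66 ± 0.30, adjusted p = 0.00106, a lower bound). Both NSC cultures were low too, at 6.46 and 6.10, while the mGC3_CNP mean was 9.92.

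**Figure D1:**
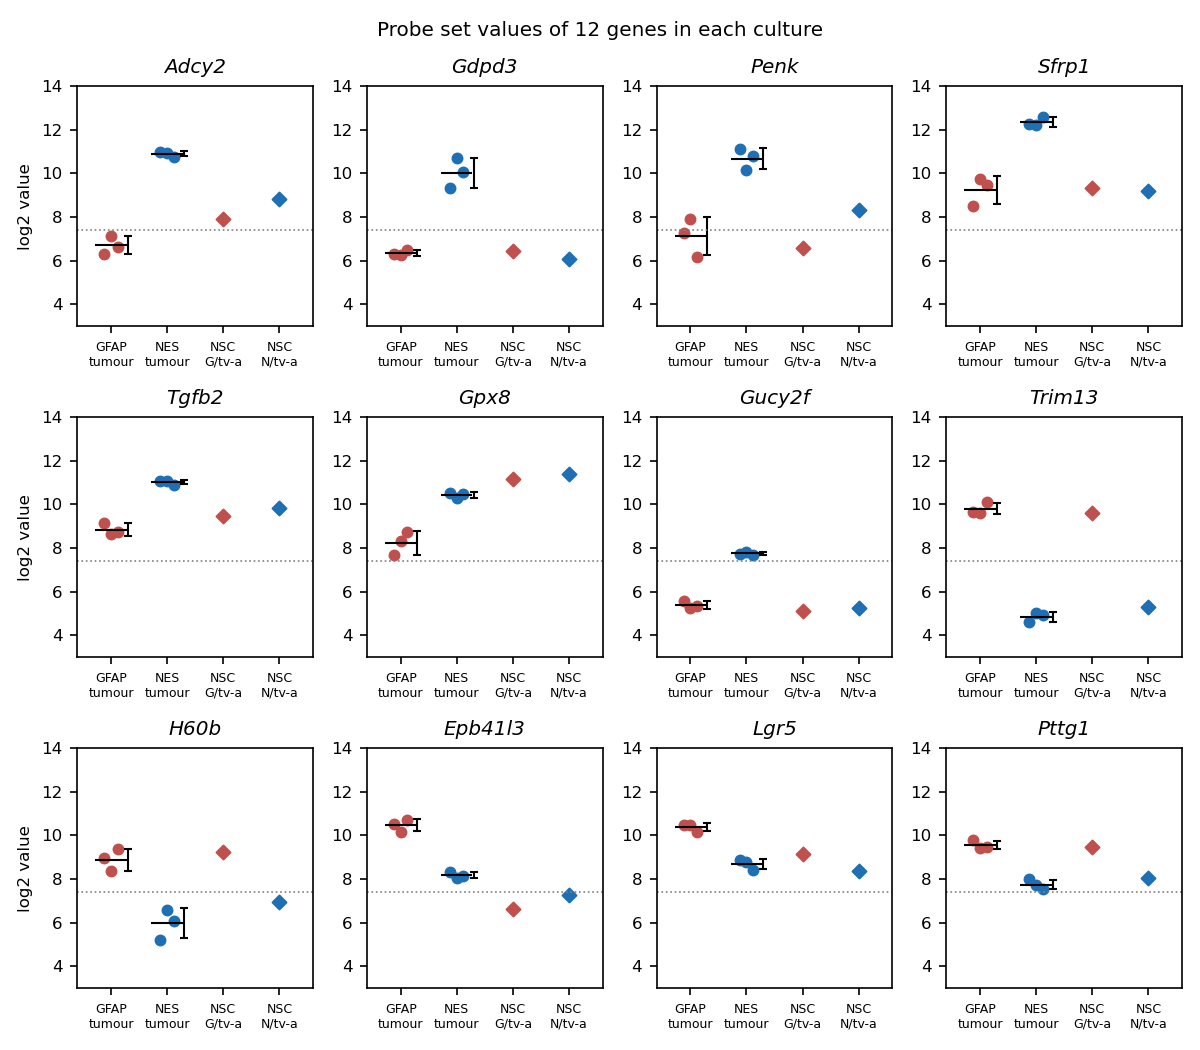
Log2 values of 12 genes in the 3 mGC1_GFAP (red) and 3 mGC2_NES (blue) tumour cultures (circles, with the mean as a line and the SD as a bar beside it) and in the NSC cultures of the same lines (diamonds, 1 array each). The dotted line is at 7.42, the highest reading among absent transcripts; Trim13 divides both the tumour and the NSC cultures by line, while Gdpd3 is high only in mGC2_NES tumours among the groups shown.

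Other genes of the 15 encode secreted or matrix proteins. Sfrp1, a secreted antagonist that binds Wnt proteins, read 8.52, 9.76 and 9.46 in mGC1_GFAP and 12.26, 12.21 and 12.60 in mGC2_NES (difference -3.11 ± 0.34, adjusted p = 0.00323). Its NSC difference was 0.15, and both NSC cultures (9.34 and 9.19) lay at the mGC1_GFAP level. Tgfb2, a ligand of the TGF-beta family, read 9.17, 8.63 and 8.75 against 11.07, 11.08 and 10.90 (difference -2.17 ± 0.17, adjusted p = 7.38e-04). The NSC difference was -0.36, and here too the NSC cultures lay below the mGC2_NES cultures. Hapln1, a link protein that ties hyaluronan to proteoglycans, differed by -3.07 ± 0.66 (adjusted p = 0.0294, NSC difference 0.16). Adamtsl3, of the ADAMTS-like matrix proteins, differed by -2.07 ± 0.42 (adjusted p = 0.0232, NSC difference -0.39).

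The remaining low genes have varied roles. Cd59a, which shields cells from complement, read 4.47, 5.07 and 5.04 against 8.22, 7.47 and 7.81. The groups were far apart, with a difference of -2.98 ± 0.43 (adjusted p = 0.00746, a lower bound) and an NSC difference of -2.48. Gpx8, a peroxidase of the endoplasmic reticulum, read 7.66, 8.32 and 8.75 against 10.53, 10.28 and 10.45 (difference -2.18 ± 0.25, adjusted p = 0.00347). Both NSC cultures, at 11.18 and 11.41, lay above all 6 tumour cultures. The retinal guanylyl cyclase gene Gucy2f read at most 5.59 in mGC1_GFAP and 7.69 to 7.82 in mGC2_NES, a narrow range just above absent transcripts (difference -2.35 ± 0.09, adjusted p = 6.55e-06, NSC difference -0.12). The lineage gene Tmem100 (-3.41 ± 0.63), Renbp (-2.84 ± 0.55), the apoptosis inhibitor Faim2 (-2.84 ± 0.56) and the sialyltransferase St3gal6 (-2.17 ± 0.41) complete the 15. Their NSC differences were 0.33, 0.13, -0.51 and -0.06 in that order. The values of Renbp, Adamtsl3 and Gucy2f are lower bounds.

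Trim13 was the gene highest in mGC1_GFAP relative to mGC2_NES. This ubiquitin ligase of the endoplasmic reticulum read 9.67, 9.63 and 10.09 in mGC1_GFAP and 4.61, 5.03 and 4.94 in mGC2_NES, a level of absent transcripts in every mGC2_NES culture. The difference was 4.94 ± 0.17 (adjusted p = 4.29e-06), a lower bound. The NSC cultures divided the same way, at 9.60 and 5.32, and the mGC3_CNP mean was 9.60. H60b, a ligand of the natural killer cell receptor NKG2D, read 8.94, 8.36 and 9.36 against 5.23, 6.59 and 6.10 (difference 2.91 ± 0.40, adjusted p = 0.0065, a lower bound), and its NSC difference was 2.30. Trim13 and H60b thus had the same order of lines in tumour and NSC cultures.

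Epb41l3, a membrane skeleton protein described as a tumour suppressor, read 10.52, 10.17 and 10.72 against 8.34, 8.06 and 8.15 (difference 2.29 ± 0.14, adjusted p = 2.13e-04). Its NSC difference was -0.63, and both NSC cultures (6.64 and 7.27) read below every tumour culture. Lgr5, a receptor for R-spondins that strengthens Wnt signals, read 10.48, 10.49 and 10.17 against 8.87, 8.80 and 8.43 (difference 1.68 ± 0.13, adjusted p = 7.38e-04, NSC difference 0.78). Pttg1, the securin that holds sister chromatids together, read 9.79, 9.43 and 9.46 against 7.99, 7.72 and 7.54 (difference 1.81 ± 0.14, adjusted p = 7.38e-04). Its NSC difference of 1.44 was nearly as large, unlike that of most cell cycle genes below. Olfml3, a secreted olfactomedin-like protein (1.65 ± 0.23, NSC difference 0.59), the synaptic vesicle protein gene Sv2c (1.81 ± 0.29, NSC difference 0.83) and the zinc finger gene Zfp605 (2.14 ± 0.13, a lower bound, NSC difference 1.99) were also higher.

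The remaining genes of the 15 were Zfp991 (2.59 ± 0.46), Tmem47 (2.45 ± 0.47), the kinase gene Rps6ka6 (2.17 ± 0.49), the receptor gene Adcyap1r1 (1.93 ± 0.44), Dera (1.92 ± 0.44), Tmem74 (1.79 ± 0.42) and Dach2 (1.71 ± 0.27). Their NSC differences were 0.41, 0.36, 0.10, 0.33, 1.24, -1.06 and -0.94. Of these only the value of Dera is not a lower bound, and Dach2 had both means, 7.21 and 5.50, below 7.42. The mGC1_GFAP means of Zfp991 and Tmem74, 7.43 and 7.42, lay at that level too, so presence was barely shown. Of the 30 genes named for size, 18 stayed called whichever of the 9 tumour arrays was left out and 12 did not. The 12 were Zfp991, Tmem47, Rps6ka6, Adcyap1r1, Dera and Tmem74 among the higher genes and Tmem100, Hapln1, Renbp, Faim2, St3gal6 and Adamtsl3 among the lower. The highest adjusted p reached was 0.134, for Tmem74, and no difference changed its sign. Without mGC2_NES replicate 2 calls were lost for Zfp991, Tmem47, Rps6ka6, Adcyap1r1, Dera, Tmem74, Tmem100, Hapln1, Renbp, St3gal6 and Adamtsl3. Between 6 and 9 calls were lost without each of the other mGC1_GFAP and mGC2_NES cultures, and those of Rps6ka6 and Dera without mGC3_CNP replicate 2 or 3.

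Of the genes whose promoters drive tv-a in these lines, Nes was called and Gfap was not. Nes was higher in mGC1_GFAP, at 10.47, 10.41 and 11.05 against 9.59, 9.63 and 9.67 in mGC2_NES. Its groups did not overlap, and the difference was 1.01 ± 0.19 (adjusted p = 0.0181, NSC difference -0.03), which was not called without mGC2_NES replicate 2 or 3 (highest adjusted p 0.0593). Gfap was at 6.49 and 6.58, both below 7.42 (difference -0.08 ± 0.13, adjusted p = 0.798, NSC difference -0.16). Cnp (0.36 ± 0.20, adjusted p = 0.362, NSC difference 0.20), Pdgfra (-0.01 ± 0.06, 0.971, -0.30), Pdgfb (-0.16 ± 0.10, 0.446, -0.32), Cdkn2a (-0.55 ± 0.23, 0.222, 0.04) and Cdkn2b (0.51 ± 0.36, 0.492, -0.58) were not called, each with its adjusted p and NSC difference in that order.

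The lysosome list had the largest share of calls among the pathway lists outside DNA replication. Lysosomes are acidic organelles that break down proteins, lipids and sugar chains, and their V-ATPase pumps in the protons that their enzymes need. Of 29 measured lysosome genes, 11 were lower in mGC1_GFAP, 0 were higher and 18 were not called, which is 37.9% against 6.23% of all genes. The median difference was -0.35 against -0.02 over all genes, and 4 of the 29 had a positive difference. The median NSC difference of these genes was 0.09, and 3 of the 11 called genes had an NSC difference of the same sign. The mean of the 29 genes was taken relative to their mean over the 9 tumour arrays. It lay at -0.17, -0.14 and -0.26 in mGC1_GFAP and at 0.14, 0.15 and 0.20 in mGC2_NES. The groups did not overlap, but each gene entered by its smallest p in this same comparison, so this is no separate support. Nor is it particular to this list. The collagen mean, with 2.27% of genes called, lay at -0.11, 0.04 and -0.09 against 0.06, 0.12 and 0.13. In the NSC cultures the lysosome mean lay at 0.14 (G/tv-a) and 0.00 (N/tv-a), the opposite order, and in mGC3_CNP at 0.01 to 0.06.

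**Figure D2:**
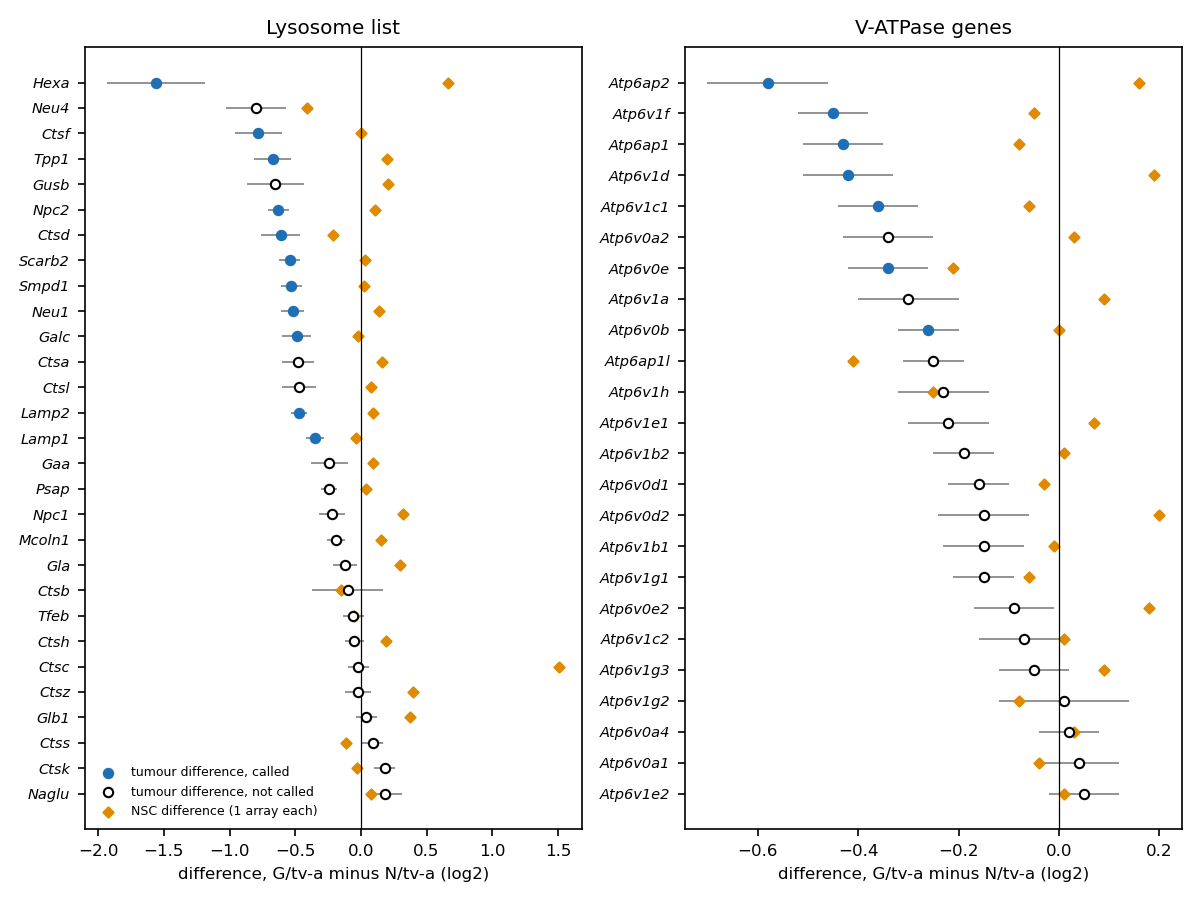
Difference of each measured gene of the lysosome list (left) and of the V-ATPase (right) between mGC1_GFAP and mGC2_NES tumours (circles with the standard error, filled where called) and between the NSC cultures of the same lines (diamonds, 1 array each), on the log2 scale. Of 29 lysosome genes 11 were called, all lower in mGC1_GFAP, and of 24 V-ATPase genes 7, while the NSC differences scatter around 0.

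Many known lysosome genes carry the letters CACGTG, the core of the site bound by the factor TFEB, close to their start. Promoters of 4 called lysosome genes are shown for where these letters lie, as the 250 bases before the gene's start on its own strand, 5′ to 3′, with each CACGTG in capitals. They come from RefSeq on GRCm38.p6 and lie at chr9:59539290-59539539 (Hexa, plus strand), chr8:13158911-13159160 (Lamp1, plus strand), chr7:142387828-142388077 (Ctsd, minus strand) and chr19:4854915-4855164 (Ctsf, plus strand).
Hexa: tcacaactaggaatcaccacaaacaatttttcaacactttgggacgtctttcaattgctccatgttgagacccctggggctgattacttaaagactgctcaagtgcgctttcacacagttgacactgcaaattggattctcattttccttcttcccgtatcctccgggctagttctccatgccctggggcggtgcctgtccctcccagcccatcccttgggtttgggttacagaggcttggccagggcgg
Lamp1: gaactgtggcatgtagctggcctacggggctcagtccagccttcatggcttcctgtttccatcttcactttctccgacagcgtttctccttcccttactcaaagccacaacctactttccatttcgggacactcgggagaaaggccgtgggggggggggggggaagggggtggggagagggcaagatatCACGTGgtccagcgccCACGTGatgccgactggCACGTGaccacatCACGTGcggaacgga
Ctsd: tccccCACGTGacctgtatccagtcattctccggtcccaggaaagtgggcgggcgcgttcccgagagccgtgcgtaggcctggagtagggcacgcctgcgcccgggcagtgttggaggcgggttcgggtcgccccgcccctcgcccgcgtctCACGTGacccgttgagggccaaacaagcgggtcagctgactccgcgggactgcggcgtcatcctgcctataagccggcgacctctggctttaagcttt
Ctsf: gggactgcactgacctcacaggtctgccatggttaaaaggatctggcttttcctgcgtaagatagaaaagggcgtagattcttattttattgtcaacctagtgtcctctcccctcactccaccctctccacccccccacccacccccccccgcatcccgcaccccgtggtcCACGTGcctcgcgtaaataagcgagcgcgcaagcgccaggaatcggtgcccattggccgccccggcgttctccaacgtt

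CACGTG reads the same on both strands, and no other motif was searched. It occurs 4 times in the Lamp1 window, 2 times in that of Ctsd, 1 time in that of Ctsf and 0 times in that of Hexa. It stands in 10 of the 26 lysosome genes that have a promoter in the table (38.5%), against 1266 of 15611 tested genes (8.11%). Among these 26 it stood in 3 of the 11 called genes (27.3%) and 7 of the 15 that were not called (46.7%). All 3 called genes that hold it are among the 4 shown, so these show it more often than the called genes do. Tfeb itself differed by -0.06 ± 0.08 (adjusted p = 0.714).

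The called lysosome genes span its enzymes and its membrane. Hexa, a subunit of the hexosaminidase that degrades gangliosides, read 8.92, 10.27 and 8.72 in mGC1_GFAP and 10.34, 11.05 and 11.19 in mGC2_NES. Its mGC1_GFAP replicate 2 nearly reached the lowest mGC2_NES culture, and the difference was -1.56 ± 0.37 (adjusted p = 0.0421, NSC difference 0.66). The cysteine protease gene Ctsf read 8.70, 9.32 and 9.11 against 9.46, 9.98 and 10.03 (difference -0.78 ± 0.18, adjusted p = 0.0391, NSC difference 0.00). The aspartic protease gene Ctsd read 11.55, 11.55 and 11.25 against 12.01, 12.14 and 12.04 (difference -0.61 ± 0.15, adjusted p = 0.0462, NSC difference -0.21). These 3 had the highest adjusted p among the 11. Lamp1 and Lamp2 encode the main proteins of the lysosome membrane, and their replicates were close. Lamp2 read 11.41, 11.49 and 11.38 against 11.94, 11.86 and 11.90 (difference -0.47 ± 0.06, adjusted p = 0.00554, NSC difference 0.09). Lamp1 read 12.14, 12.04 and 11.99 against 12.33, 12.47 and 12.41 (difference -0.35 ± 0.07, adjusted p = 0.0198, NSC difference -0.04).

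Lipid handling genes were also among the called ones. Npc2, which carries cholesterol out of the lysosome, read 9.95, 9.90 and 9.80 against 10.63, 10.41 and 10.51 (difference -0.63 ± 0.08, adjusted p = 0.00519, NSC difference 0.11). Smpd1, the acid sphingomyelinase, differed by -0.53 ± 0.08 and Galc, the galactosylceramidase, by -0.49 ± 0.11. The peptidase gene Tpp1 (-0.67 ± 0.14), the sialidase gene Neu1 (-0.52 ± 0.09) and the membrane receptor gene Scarb2 (-0.54 ± 0.08) complete the 11, and the NSC differences of these 5 genes lay between -0.02 and 0.20. Not called were, among others, Ctsa (-0.48 ± 0.12, adjusted p = 0.0505), Psap, the precursor of the saposins (-0.24 ± 0.06, 0.0576), Ctsl (-0.47 ± 0.13, 0.0668) and Ctsb (-0.10 ± 0.27, 0.893). Left out in turn, mGC1_GFAP replicates 1 and 3 gave 6 and 5 calls in place of 11, mGC2_NES replicates 2 and 3 gave 7 and 6, and mGC3_CNP replicate 3 gave 7.

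V-ATPase genes, picked after these values were seen, were likewise called only as lower. Of 24 measured subunits and accessory proteins 7 were lower and 0 higher (29.2%, against 6.23% of all genes). The median was -0.20 and the NSC median 0.01. Atp6v1f read 11.52, 11.39 and 11.37 against 11.95, 11.82 and 11.86 (difference -0.45 ± 0.07, adjusted p = 0.0082, NSC difference -0.05). The accessory protein genes Atp6ap2 (-0.58 ± 0.12) and Atp6ap1 (-0.43 ± 0.08) and the subunit genes Atp6v1d (-0.42 ± 0.09), Atp6v1c1 (-0.36 ± 0.08), Atp6v0e (-0.34 ± 0.08) and Atp6v0b (-0.26 ± 0.06) were the others. Left out in turn, mGC1_GFAP replicates 1, 2 and 3 gave 1, 2 and 2 calls and mGC2_NES replicates 1 and 3 gave 3 and 2, and mGC3_CNP replicate 3 gave 4. CACGTG stood in 2 of 17 V-ATPase promoters in the table (11.8%). In all, 20 of the 24 had a negative difference.

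Sialyltransferase genes were called only as lower. Of 20 sialyltransferases, picked after their values were seen, 4 were lower in mGC1_GFAP and 0 higher (20%, against 6.23% of all genes). The median over the family was 0.02. These enzymes add sialic acid to the ends of sugar chains. Besides St3gal6 they were St6gal1, at 8.89, 9.65 and 9.23 against 10.54, 10.65 and 10.29 (difference -1.23 ± 0.22, adjusted p = 0.0162, NSC difference -0.24), St6galnac6 (-0.50 ± 0.08, NSC difference -0.13) and St3gal5, which makes the ganglioside GM3 (-0.49 ± 0.12, NSC difference 0.03). Renbp, listed above, encodes an epimerase that acts on N-acetylglucosamine, a building block of the same chains.

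Genes of fatty acid synthesis and storage were called in both directions. Of 25 measured, 5 were lower in mGC1_GFAP and 1 higher (24%, against 6.23% of all genes). The median was -0.15 and the NSC median 0.18. Srebf1, the transcription factor that drives fatty acid synthesis, read 10.19, 8.82 and 9.65 against 10.83, 11.11 and 11.13 (difference -1.47 ± 0.29, adjusted p = 0.0204, NSC difference 0.29). Dgat2, which makes triglycerides for storage, was at 9.87 ± 0.13 against 11.11 ± 0.32 (SD, n = 3 each; limma difference -1.25 ± 0.19, adjusted p = 0.00932, NSC difference -0.41). Both genes were below every mGC2_NES culture in all 3 mGC1_GFAP cultures. The phosphatidic acid phosphatase gene Lpin1 (-0.90 ± 0.15, NSC difference 0.37), the malic enzyme gene Me1 (-0.48 ± 0.11, NSC difference -0.09) and the elongase gene Elovl1 (-0.38 ± 0.09, NSC difference 0.04) were lower, and the fatty acid binding protein gene Fabp5 was higher (0.52 ± 0.10, NSC difference 0.31). The synthase Fasn (0.18 ± 0.09, adjusted p = 0.315), a classical target of Srebf1, was not called. The 5 lower calls became 3, 3 and 2 without mGC1_GFAP replicates 1, 2 and 3 and 3, 2 and 2 without mGC2_NES replicates 1, 2 and 3. Of 21 cholesterol synthesis genes 3 were lower and 0 higher (14.3%, against 6.23% of all genes), with a median of 0.11. These were Tm7sf2 (-0.67 ± 0.13), Sc5d (-0.36 ± 0.08) and Insig1, which holds back the SREBP factors (-0.54 ± 0.09), with NSC differences of 0.18, 0.16 and 0.15.

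**Figure D3:**
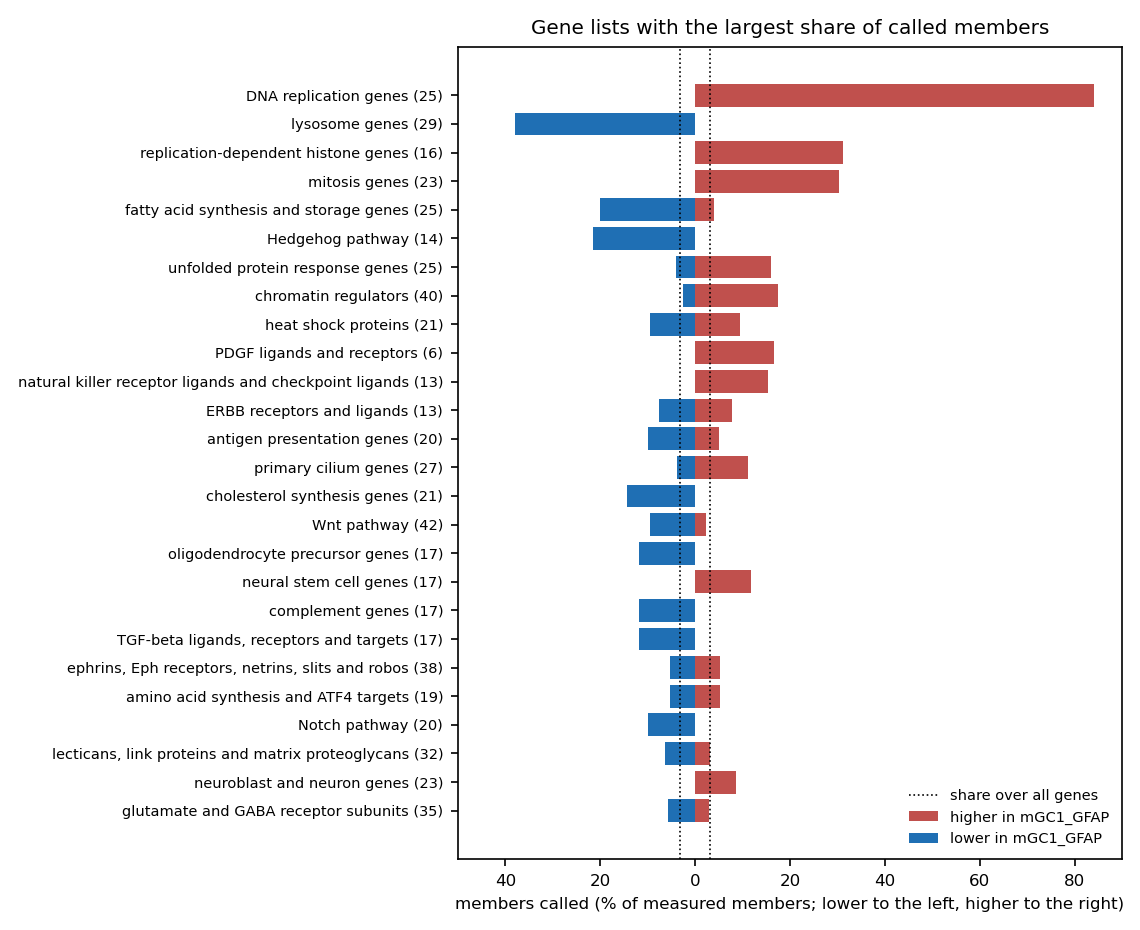
Share of the measured members of each gene list (number in brackets) called higher in mGC1_GFAP (red, to the right) or lower (blue, to the left), for the 26 lists with the largest share called; the dotted lines give the shares over all genes, 3.06% higher and 3.18% lower. DNA replication genes are almost all higher and lysosome genes are called only as lower.

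Signalling lists held few calls in number, several of them large, while 6.23% of all genes were called. In the Hedgehog list 3 of 14 were lower and 0 higher (21.4%, median -0.03). Gli3, mainly a repressor of Hedgehog targets, read 7.05, 7.85 and 7.80 against 9.12, 8.50 and 8.84 (difference -1.25 ± 0.25, adjusted p = 0.0229, NSC difference 0.22). The coreceptor genes Boc (-1.23 ± 0.17, adjusted p = 0.00645, NSC difference 0.94) and Gas1 (-0.62 ± 0.10, adjusted p = 0.0105, NSC difference -0.06) were lower as well. The target gene Ptch1 was not called (0.09 ± 0.10, adjusted p = 0.696), and Gli1 had both means below 7.42. In the Wnt list 1 of 42 was higher (Lgr5) and 4 were lower (11.9% called, median -0.05), which were Sfrp1, the receptor genes Fzd9 (-0.98 ± 0.16, NSC difference 0.44) and Fzd8 (-0.69 ± 0.11, NSC difference -0.21) and the R-spondin receptor Lgr4 (-0.71 ± 0.12, NSC difference 0.57). The related receptor genes Lgr5 and Lgr4 thus differed in opposite directions between the tumours.

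In the TGF-beta list 2 of 17 were lower and 0 higher (11.8%), Tgfb2 and Tgfb1 (-0.44 ± 0.09, NSC difference -0.04). Tgfb1 had both means below 7.42, and the receptor genes Tgfbr1 (0.05 ± 0.10) and Tgfbr2 (-0.37 ± 0.20) were not called. In the Notch list 2 of 20 were lower and 0 higher (10%). The ligand gene Jag1 read 10.80, 11.10 and 11.12 against 11.87, 11.40 and 11.83 (difference -0.69 ± 0.14, adjusted p = 0.0232, NSC difference -0.35). The repressor gene Hey2, a Notch target, read 8.92, 9.33 and 8.15 against 10.40, 10.95 and 10.24 (difference -1.73 ± 0.32, adjusted p = 0.0172), with an NSC difference of 1.50 in the opposite direction. It lost its call without mGC1_GFAP replicate 1 or mGC2_NES replicate 2 (highest adjusted p 0.0608). Of 27 BMP genes 7.41% were called, near the 6.23% over all genes. The decoy receptor gene Bambi was higher (0.51 ± 0.10, NSC difference -0.24) and the antagonist gene Chrdl1 lower (-0.94 ± 0.22, NSC difference 0.41).

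Growth factor lists held few calls in number. The shares called were 16.7% of the PDGF and 15.4% of the ERBB list, against 6.23% over all genes. Of 6 PDGF genes 1 was called, the ligand gene Pdgfc, at 9.13, 9.04 and 9.25 against 8.47, 8.45 and 8.58 (difference 0.64 ± 0.09, adjusted p = 0.00725, NSC difference -0.06). Of 13 ERBB genes Erbb4 was higher (0.61 ± 0.12, NSC difference 0.56) and Erbb3 lower (NSC difference 0.15). None of 16 FGF, 15 insulin-like growth factor, 14 ERK feedback, 20 immediate early or 17 NF-kB genes was called by limma (unadjusted p under 0.05 in 4, 1, 4, 5 and 5). Their members with the smallest p did not pass either, Fgf12 (0.49 ± 0.15, adjusted p = 0.0993), Igf2 (-0.22 ± 0.09, 0.221), Spred2 (0.30 ± 0.11, 0.138), Ier2 (0.48 ± 0.13, 0.0669) and Nfkbie (-0.58 ± 0.16, 0.0661).

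Lineage lists held few calls in number, while 6.23% of all genes were called. The shares were 11.8% of oligodendrocyte precursor, 5.26% of astrocyte, 11.8% of neural stem cell and 8.7% of neuroblast and neuron genes. Of 17 oligodendrocyte precursor genes 2 were lower and 0 higher. Tmem100, a membrane protein of these cells, read 8.33, 8.01 and 6.18 against 11.25, 10.69 and 10.80, and Lhfpl3 differed by -0.33 ± 0.08 (NSC difference -0.20). None of 18 differentiated oligodendrocyte genes was called by limma (2 at an unadjusted p under 0.05), the smallest p being that of Itpr2 (-0.92 ± 0.24, adjusted p = 0.058, NSC difference 0.31). Of 19 astrocyte genes 1 was lower, S100b (-0.59 ± 0.14, NSC difference -0.15). The glutamate transporter gene Slc1a3 had a difference of 2.41 ± 0.75 that was not called (adjusted p = 0.0996). Of 17 neural stem cell genes 2 were higher and 0 lower, Nes and Nr2e1, which keeps stem cells undifferentiated (0.68 ± 0.12, adjusted p = 0.0139, NSC difference 0.38). Of 23 neuroblast and neuron genes 2 were higher, the RNA-binding protein gene Elavl3 (0.99 ± 0.19, NSC difference -0.76) and the vesicle calcium sensor gene Syt1 (1.24 ± 0.30, a lower bound, NSC difference -0.77). Both had NSC differences of the opposite sign.

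Of 24 genes of the mesenchymal glioblastoma list 2 were lower and 0 higher (8.33%), near the 6.23% over all genes. Chil1, a chitinase-like secreted protein, read 9.28, 8.89 and 8.74 against 10.53, 10.57 and 10.81 (difference -1.67 ± 0.17, adjusted p = 0.00241, NSC difference -0.02). Runx1, a transcription factor, read 8.20, 8.68 and 8.46 against 10.71, 9.39 and 9.98 (difference -1.58 ± 0.35, adjusted p = 0.0332), and its NSC difference was -1.54. Chil1 thus separated the tumours. Both NSC cultures, at 6.85 and 6.87, read below 7.42, where its presence was not shown.

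Matrix and adhesion lists held between 1 and 3 calls each, apart from cadherins with 0. The shares called were 2.27% of collagen, 4.35% of matricellular and 5.13% of matrix protease and inhibitor genes. They were 9.38% of proteoglycan and link protein and 8.33% of integrin and laminin genes, against 6.23% over all genes. Of 44 collagen genes only Col9a3 was called (-1.46 ± 0.30, NSC difference 0.14). Of 23 matricellular genes only Sparc was called, which encodes a collagen-binding protein. It read 12.09, 12.53 and 12.19 against 13.01, 13.18 and 13.09 (difference -0.82 ± 0.11, adjusted p = 0.00604, NSC difference -0.61). Of 39 matrix protease and inhibitor genes 2 were lower, the inhibitor genes Timp2 (-0.41 ± 0.07, NSC difference -0.50) and Reck (-0.38 ± 0.08, NSC difference -0.27). Among 32 proteoglycan and link protein genes Gpc3 was higher (1.34 ± 0.28, a lower bound, NSC difference 0.70) and Hapln1 and Gpc4 lower (-0.69 ± 0.14, NSC difference 0.24 for Gpc4). Of 36 integrin and laminin genes Lamc1 (0.66 ± 0.10, NSC difference 0.50) and Lama1 (0.76 ± 0.15, a lower bound, NSC difference 0.56) were higher and Itga9 lower (-0.82 ± 0.19, NSC difference -0.14). All 3 integrin and laminin calls had NSC differences of their own sign.

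Guidance and synaptic genes were called in both directions, while 6.23% of all genes were called. Of 38 ephrin, netrin and slit genes with their receptors 2 were higher and 2 lower (10.5%). Of 35 glutamate and GABA receptor subunit genes 1 was higher and 2 were lower (8.57%). The netrin receptor gene Dcc read 9.81, 9.57 and 9.85 against 8.60, 8.85 and 8.74 (difference 1.01 ± 0.10, adjusted p = 0.00239, NSC difference -0.32). Unc5c (0.26 ± 0.06, NSC difference 0.14) was higher, while the related receptor gene Unc5d (-1.16 ± 0.29, a lower bound, NSC difference -0.20) and the netrin gene Ntn4 (-0.59 ± 0.08, NSC difference -0.43) were lower. The kainate receptor subunit gene Grik1 was higher (1.05 ± 0.15, a lower bound, NSC difference -0.33) and Grik2 lower (-0.49 ± 0.12, NSC difference 0.56). The GABA receptor gene Gabbr1 was lower (-0.69 ± 0.14, NSC difference -0.70). Of 67 channel subunit genes 2 were higher and 0 lower (2.99%), the potassium channel genes Kcnq5 (0.75 ± 0.11, NSC difference -0.26) and Kcnk10 (0.62 ± 0.14, NSC difference 0.30).

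Cell cycle genes were higher in mGC1_GFAP and are given here briefly. Over all genes 6.23% were called. Of 25 DNA replication genes 21 were higher and 0 lower (84%, median 0.60), while their NSC median was -0.02. Cdt1, which licenses replication origins, read 10.69, 10.60 and 10.50 against 9.71, 9.87 and 9.50 (difference 0.90 ± 0.10, adjusted p = 0.00371, NSC difference -0.07). Of 23 mitosis genes 7 were higher and 0 lower (30.4%, median 0.41, NSC median 0.22). Of 16 replication-dependent histone genes 5 were higher and 0 lower (31.2%), led by H1f1 (0.94 ± 0.09, NSC difference 0.51). The 21 replication calls fell to 11 without mGC1_GFAP replicate 1 or mGC2_NES replicate 2, to 14 without mGC1_GFAP replicate 2 or 3 and to 13 without mGC2_NES replicate 3. The 7 mitosis calls were 2, 4 and 3 without mGC1_GFAP replicates 1, 2 and 3, 3 and 4 without mGC2_NES replicates 2 and 3, and 14 without mGC2_NES replicate 1.

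Chromatin regulators were mostly called as higher, and nuclear pore genes only so. Over all genes 6.23% were called, 3.06% higher and 3.18% lower. Of 40 chromatin regulators 7 were higher and 1 lower (20%, median 0.13, NSC median 0.06). The remodeller gene Chd7 read 10.79, 10.92 and 10.94 against 10.16, 10.29 and 10.27 (difference 0.64 ± 0.07, adjusted p = 0.00371), with an NSC difference of 0.66. Tet3 (0.51 ± 0.07, NSC difference 0.57) and Tet1 (0.44 ± 0.09, NSC difference 0.50), which oxidise methylcytosine, shared the direction of the NSC difference. The maintenance methyltransferase gene Dnmt1 (0.41 ± 0.08) and the Polycomb methyltransferase gene Ezh2 (0.44 ± 0.09) both had NSC differences of -0.02. The histone demethylase gene Kdm5b was lower (-0.97 ± 0.13, adjusted p = 0.00629, NSC difference -0.03), and Kmt2d (0.52 ± 0.11) and Arid1b (0.38 ± 0.08) were the other higher members. The 7 calls were 3, 4 and 3 without mGC1_GFAP replicates 1, 2 and 3 and 4, 2 and 3 without mGC2_NES replicates 1, 2 and 3. Of 20 nucleoporin genes, picked after their values were seen, 8 were higher and 0 lower (40%, median 0.24, NSC median -0.03), led by Nup85 (0.59 ± 0.09) and Nup155 (0.53 ± 0.08). Those 8 were 4, 4 and 3 without mGC1_GFAP replicates 1, 2 and 3, 5, 3 and 3 without mGC2_NES replicates 1, 2 and 3, and 5 and 4 without mGC3_CNP replicates 2 and 3.

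Genes of protein folding in the endoplasmic reticulum had small differences, mostly called as higher. Of 25 unfolded protein response genes 4 were higher and 1 lower (20%, against 6.23% of all genes). A positive difference was found for 21, and the median was 0.17 (NSC median 0.08). The chaperone gene Hspa5 read 12.59, 12.62 and 12.66 against 12.09, 12.20 and 12.38 (difference 0.40 ± 0.09, adjusted p = 0.0392, NSC difference 0.11). Xbp1, a transcription factor of this response, read 11.23, 11.13 and 11.13 against 10.82, 10.60 and 10.71 (difference 0.45 ± 0.09, adjusted p = 0.02, NSC difference -0.22). Hsp90b1 (0.34 ± 0.07) and Pdia6 (0.41 ± 0.09) were higher and Dnajb9, a target of Xbp1, lower (-0.53 ± 0.13, NSC difference -0.18). The 4 higher calls were lost without mGC1_GFAP replicate 1, mGC1_GFAP replicate 3 or mGC2_NES replicate 2, which each left 0, while 1 was left without mGC1_GFAP replicate 2 or mGC2_NES replicate 1 and 2 without mGC3_CNP replicate 3.

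Immune lists held 2 or 3 calls each. The shares called were 11.8% of complement, 15% of antigen presentation, 8% of chemokine and cytokine and 6.25% of interferon response genes. Over all genes the share was 6.23%, close to that of the interferon list. Of 13 natural killer receptor and checkpoint ligand genes 2 were higher and 0 lower (15.4%), H60b and Nectin2 (0.46 ± 0.11, NSC difference 0.19), and Raet1d, another NKG2D ligand, had 1.64 ± 0.48 without a call (adjusted p = 0.0826, NSC difference 1.81). Of 17 complement genes 2 were lower, Cd59a and C4b (-0.53 ± 0.13, both means below 7.42). Of 20 antigen presentation genes H2-T10 was higher (0.55 ± 0.11, a lower bound), and Tapbp, which loads peptides onto class I molecules (-0.58 ± 0.10, NSC difference -0.26), and the class II gene H2-Ab1 (-0.98 ± 0.12, both means below 7.42, NSC difference 0.03) were lower. Of 25 chemokine and cytokine genes 2 were lower, Cx3cl1 and Cxcl12 (-0.72 ± 0.18, both means below 7.42, NSC difference -0.10). The chemokine gene Cx3cl1 read 9.29, 9.27 and 9.03 against 9.75, 10.06 and 10.04 (difference -0.76 ± 0.16, adjusted p = 0.0297, NSC difference 0.34). Of 32 interferon response genes Stat2 (-0.43 ± 0.09, NSC difference 0.02) and Ifi27 (-0.51 ± 0.10, NSC difference -0.17) were lower.

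The further metabolic and stress lists given here held between 1 and 4 calls each. The shares called were 5.56% of glycolysis, 7.32% of glutathione and detoxification, 19% of heat shock and 14.8% of primary cilium genes. Over all genes 6.23% were called. Of 18 glycolysis genes 1 was lower, the lactate dehydrogenase gene Ldhb, at 10.83, 10.20 and 10.57 against 11.56, 11.27 and 11.31 (difference -0.85 ± 0.15, adjusted p = 0.0161, NSC difference 0.38). Of 41 glutathione and detoxification genes the drug efflux gene Abcb1b was higher (0.72 ± 0.15, NSC difference 0.11), and Gpx8 and the sulfiredoxin gene Srxn1 lower (-0.46 ± 0.06, NSC difference -1.30 for Srxn1). Of 21 heat shock genes Dnaja1 (0.31 ± 0.07) and Hspe1 (0.28 ± 0.06) were higher and Hspa1a (-0.38 ± 0.08) and Dnajb4 (-0.29 ± 0.07) lower, all 4 with NSC differences of their own sign. Of 27 primary cilium genes Ift27 (0.68 ± 0.12), Rpgrip1l (0.57 ± 0.10, a lower bound) and Arl3 (0.33 ± 0.07) were higher and Bbs2 (-0.32 ± 0.07) lower. Of 36 ribosomal protein genes 3 were higher and 0 lower (8.33%), Rps9 (0.66 ± 0.10), Rpsa (0.41 ± 0.07) and Rps28 (0.33 ± 0.08). Their NSC differences were 0.53, 0.02 and 0.19.

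Other lists without a call by limma were those of 37 Hox, 18 SOX and 16 forebrain patterning genes, 34 cadherins, 45 oxidative phosphorylation subunits and 11 CDK inhibitors and D cyclins (unadjusted p under 0.05 in 1, 6, 1, 7, 8 and 1). The 317 measured genes of the Zfp series of zinc finger proteins gave 11 higher and 7 lower (5.68%), near the share over all genes.

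The NSC cultures shared the direction of the tumour difference for 854 of the 1336 called probe sets (63.9%), against 53.4% of all probe sets. For the 143 calls of at least 2-fold it was 83 (58%). An NSC difference of at least 2-fold, seen for 1.22% of all probe sets, went in the tumour direction for 33 calls, 16 higher and 17 lower, where 0.707% of all probe sets did so. These were 21 without mGC1_GFAP replicate 1, and 16 when the fit took in all 12 arrays. The latter fit held the NSC cultures as 1 group, so differences among them entered its spread. It went against the tumour direction for 14 calls, from 11 genes, where 0.51% of all did. The median NSC difference was 0.11 over the higher calls and -0.05 over the lower ones. Besides Trim13, AA388235, Penk, Cd59a, H60b, Zfp605, Dera and Pttg1, the genes named for a shared direction were Zfp459 (1.65 ± 0.12, a lower bound, NSC difference 1.86) and Zfp57, which maintains imprints (-1.70 ± 0.26, NSC difference -1.01).

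**Figure D4:**
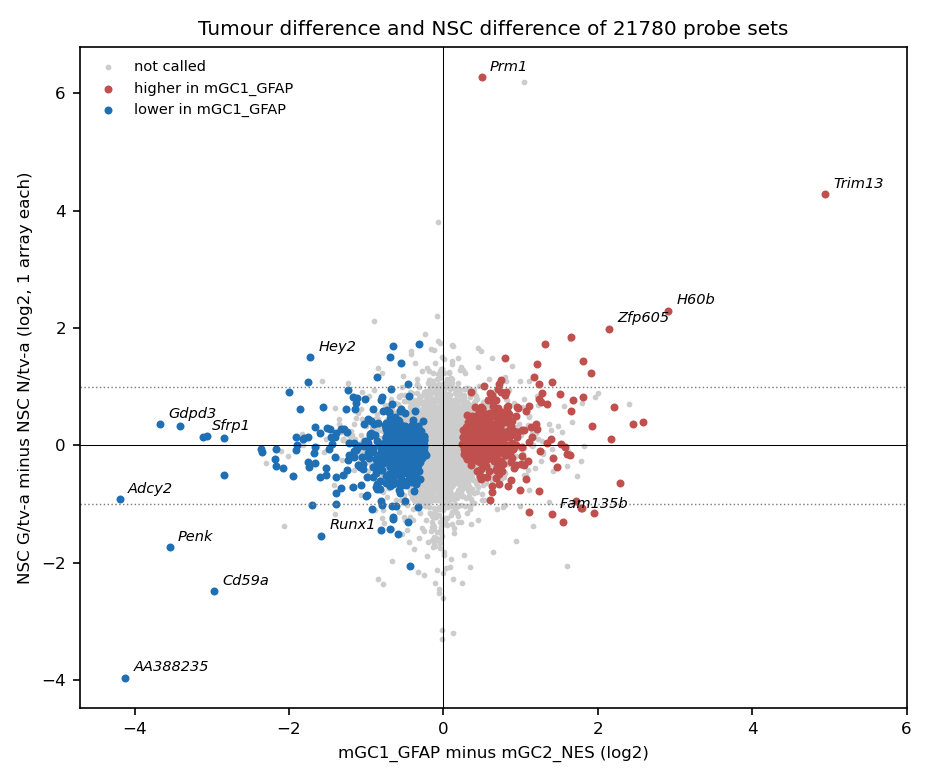
Difference between mGC1_GFAP and mGC2_NES tumours (x axis, log2) and between the NSC cultures of the same lines (y axis, log2, 1 array each) for 21780 probe sets, with calls in red (higher) and blue (lower) and dotted lines at a 2-fold NSC difference. Trim13, H60b and Zfp605 lie at the upper right and AA388235, Cd59a and Penk at the lower left, while most calls, such as Gdpd3 and Sfrp1, lie near an NSC difference of 0.

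Some chromosomes had median deviations that differed between cultures of a group. Chromosome 11 held 71 higher and 25 lower genes of 1563 (4.54% and 1.60%), and chromosome 19 held 10 and 30 of 675 (1.48% and 4.44%). Over all genes 3.06% were higher and 3.18% lower. The median deviation of each chromosome from the mean of the 6 arrays was taken over a part of its probe sets, 1037 for chromosome 11. For chromosome 11 the deviation was 0.11 in mGC1_GFAP replicate 1 and 0.10 in replicate 3, but -0.06 in replicate 2. In mGC2_NES it was -0.03, -0.06 and -0.06. It thus ran along the groups except in mGC1_GFAP replicate 2, and its part in the results was not tested beyond the centring given here. Chromosomes 6 and 17 were each at 0.14 in mGC1_GFAP replicate 1, chromosome 16 at 0.12 in mGC2_NES replicate 1 and chromosome 19 at 0.09 in mGC2_NES replicate 3. With each chromosome centred in each array, an alternative chosen after seeing the data, 1278 of the 1336 calls were kept and the lysosome count stayed at 11. The called probe sets of chromosome 11 went from 77 higher and 25 lower to 76 and 36.

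**Figure D5:**
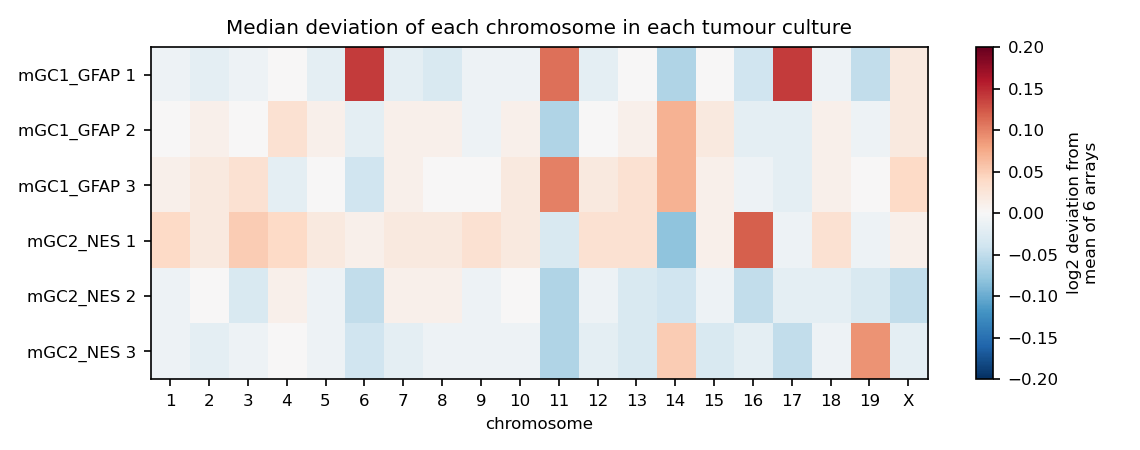
Median log2 deviation of a part of the probe sets of each chromosome (x axis, 1037 for chromosome 11) from the mean of the 6 arrays, for each mGC1_GFAP and mGC2_NES culture (rows). Chromosomes 6, 11 and 17 are high in mGC1_GFAP replicate 1, at 0.14, 0.11 and 0.14, and chromosome 16 in mGC2_NES replicate 1, at 0.12.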

How the data were processed

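RNA of 12 cultures was hybridised to Affymetrix whole-transcript arrays, 1 array each, and the groups were taken from the labels. Per the submitters' processing notes, the deposited values are log2 summaries per probe set from Affymetrix Expression Console, computed by the authors with RMA. Versions and build: not given in the sources used here. RMA scales arrays to a common distribution, which hides any change that most genes share. Array medians were 7.60 to 7.66. Arrays have no read depth, and their number limits the precision.

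Of 28270 probe sets 21780 had 1 gene symbol in the platform annotation, 1617 had several and 4873 were not listed. Of the 21780, 21689 matched RefSeq GRCm38.p6 and 0 symbols were updated. They were tested in R 4.3.3 with limma 3.58.1 (lmFit, eBayes, two-sided, Benjamini-Hochberg over 21780) on the 9 tumour arrays, and the method was tested on simulated data. Of 1675 genes in 65 lists, 1544 were measured, 19 through another symbol. A gene counts once, by its smallest p.

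Named were the 15 called genes with the largest difference in each direction (without Gm, Rik, LOC, Mir and Snor names), up to 6 called members per list or the smallest p where none was called, up to 10 per direction with a 2-fold NSC difference, members needed to give a family in full, and 7 fixed genes (Cdkn2a, Cdkn2b, Cnp, Gfap, Nes, Pdgfb and Pdgfra). Families said to be picked after their values were seen follow symbol stems. The members and lists were chosen with earlier results of these data known. Alternatives covered samples in the fit, scaling, variance prior, array weights, a filter on low values, 1 probe set a gene, the replicate number and each array left out.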

Additional observations from a re-analysis of the deposited data

Results flagged for a closer look

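In 10 named genes all 3 mGC1_GFAP cultures differed from all 3 mGC2_NES cultures in one direction while the NSC cultures of the same lines differed at least 2-fold in the other. With 1 NSC culture per line, this difference between tumour and NSC was not tested. Tmem74, a lysosomal membrane protein, differed by 1.79 in the tumours and by -1.06 in NSC, Fam135b by 1.40 and -1.16, and AI504432 by 1.10 and -1.13. The tumour differences of all 3 are lower bounds, since their mGC2_NES means lay below 7.42. For Tmem74 the mGC1_GFAP mean was itself at 7.42, with replicate 2 at 6.56, so its presence there was barely shown. All 5 probe sets of Fam135b were called and had a negative NSC difference, from -0.56 to -1.31.

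The other 7 were lower in the tumours and higher in NSC. The mitochondrial calcium-binding protein gene Efhd1 gave -1.75 and 1.07, Hey2 -1.73 and 1.50, the peptidase gene Pgpep1 -0.86 and 1.17, and Mmd2 -0.69 and 1.51. The progestin receptor gene Paqr8 gave -0.65 and 1.70, the glycine transporter gene Slc6a9 -0.54 and 1.41, and Eya1, a transcriptional coactivator, -0.45 and 1.05. Of these 10, Tmem74, Efhd1, Hey2, AI504432, Mmd2 and Slc6a9 lost their call without at least 1 of the 9 tumour arrays.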

How the results depend on the processing

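Apart from leaving out arrays, the total of 1336 calls ranged from 1076 (only the 6 arrays of both groups) to 1609 (filter on low values). Of the counts and lists, 176 values over all settings stayed within 1.5 times the main value and 64 did not. Among single genes 862 values kept direction and side of the threshold, 90 kept the direction and lost the call, and 5 changed sign, all of Pdgfra, which was never called (0.00 median-centred, 0.01 chromosome-centred, and -0.04 to 0.01 with 1 array left out, above 0 without mGC1_GFAP replicate 3, mGC2_NES replicate 1 or mGC2_NES replicate 3). With only the 6 arrays of both groups, mitosis, V-ATPase and nucleoporin calls were 4 each. With all 12 arrays, calls with a shared 2-fold NSC difference were 16 instead of 33. That fit held all NSC cultures as 1 group, so differences among them entered the spread used for the calls. How much of the drop this makes up, and the cause of the other changes, was not tested.

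With 1 tumour array left out, calls ranged from 534 to 1619, higher calls from 255 to 816, lower calls from 279 to 803 and those with a shared NSC difference from 21 to 36. List calls ranged from 5 to 11 for lysosome, 2 to 5 for fatty acid, 0 to 4 for unfolded protein response, 2 to 8 for chromatin, 11 to 23 for DNA replication, 2 to 14 for mitosis, 1 to 8 for V-ATPase and 3 to 7 for nucleoporin genes.

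The replicate number as a block gave 1436 calls, 761 higher and 675 lower. Deviations of arrays with the same number correlated at 0.05, 0.11 and 0.00 for numbers 1, 2 and 3, so the numbers do not show a pairing. Under the block the named genes Adcyap1r1, Mmd2 and Slc6a9 had adjusted p = 0.0533, 0.0529 and 0.0524.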

Other observations

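Prm1, which encodes a protamine that packs sperm DNA, was picked after its values were seen. It read 13.49 in the NSC G/tv-a culture, against 7.21 in NSC N/tv-a and 7.15 in NSC C/tv-a. In the tumours it read 7.77, 7.66 and 7.75 in mGC1_GFAP and 7.25, 7.33 and 7.11 in mGC2_NES. The difference was 0.49 ± 0.07 (limma adjusted p = 0.0082), a lower bound, since the mGC2_NES mean of 7.23 lay below 7.42. The mGC1_GFAP mean of 7.73 lay just above that level, and mGC3_CNP was at 7.11 ± 0.05 (SD, n = 3). The groups did not overlap, although the mGC2_NES values lie below the array medians given above. What the probe set read in the NSC G/tv-a culture was not tested.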
